A study of Mus musculus with 4 samples.

Results

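Conventional dendritic cells and Cd209a-expressing cells of the mouse liver were selected on their raw counts of unique molecular identifiers (UMIs, tags that mark each captured transcript once). Cells entered with at least 500 UMIs, at least 300 detected genes and at most 10% of UMIs from mitochondrial genes, and are called kept cells here. A kept cell was a member if it held at least 10 UMIs of H2-Aa, at least 1 UMI of Flt3 and Cd209a together, at most 1 UMI of Cd79a, fewer than 10 UMIs of Prg4 and 0 UMIs of Siglech, Ms4a1 and Cd3e. H2-Aa encodes the alpha chain of an MHC class II molecule, Flt3 is the cytokine receptor that dendritic cell precursors depend on, and Cd209a is a C-type lectin of the DC-SIGN family. The genes that had to be low mark plasmacytoid dendritic cells (Siglech), B cells (Cd79a and Ms4a1), T cells (Cd3e) and Prg4-rich macrophages. By this rule 209 of 26825 kept cells were members, with 37 of 5142 in P-LC24, 41 of 6914 in P-HC24, 70 of 7418 in I-LC32 and finally 61 of 7351 in I-HC32. Because the members were chosen by these 8 genes, levels of the 8 genes are given as a description only.

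Conventional dendritic cells take up antigen, process it and present peptides on MHC class II molecules to CD4 T cells. Type 1 cells (cDC1) need the transcription factors Irf8 and Batf3, carry the chemokine receptor Xcr1 and the dead-cell receptor Clec9a, and cross-present antigen to CD8 T cells. Type 2 cells (cDC2) depend more on Irf4, carry Sirpa and lectins such as Clec10a and Mgl2, and prime CD4 T cells. After activation both types can mature, switch on the chemokine receptor Ccr7 and the actin-bundling protein Fscn1, and migrate to the draining lymph node. In the liver they lie mainly around the portal tracts, and Cd209a is also found on monocyte-derived cells and on small macrophages of the peritoneal cavity.

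Male C57BL/6J mice, 7 weeks old at the start, were all fed the FPC diet, which is rich in fructose, palmitate, cholesterol and trans-fat. The diet held 0.05% cholesterol (LC) or 1.25% cholesterol (HC) for 24 weeks (Progression), and then 0.05% cholesterol in both arms for a further 8 weeks (Intervention). Livers were sampled by image-guided fine-needle aspiration (FNA) at week 24 (P-LC24 and P-HC24) and week 32 (I-LC32 and I-HC32), and the 12 aspirates of 3 mice were pooled into 1 library per condition after collagenase digestion, red cell lysis and dead cell removal. The same 3 mice of an arm were sampled at both weeks, so 6 mice gave all 4 libraries, and no group without the FPC diet was analysed here. Each condition had 1 library, so no difference between conditions has a replicate check and no p-value is given. P-HC24 over P-LC24 is called Prog and I-HC32 over I-LC32 is called Int.

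In values given as 4 numbers below, the LC and then the HC library of week 24 come first, followed by the LC and the HC library of week 32. Levels are UMIs of a gene per 1000000 UMIs summed over the members of a library (CPM), and the summed totals were 676504, 712172, 1184409 and 955448 UMIs. Members held a median of 16384, 15563, 14975 and 14306 UMIs and 3695, 3380, 3527 and 3444 detected genes, against medians of 6403, 7548, 7209.5 and 8928 UMIs over all kept cells. A gene with no UMI in a library is limited to at most 3 counts, or 4.43, 4.21, 2.53 and 3.14 CPM. Between 17 and 41 barcodes occurred in both libraries of a pair, and 0 of them were members. The doublet caller Scrublet marked 2, 0, 3 and 0 members. T cells of the same libraries (929, 876, 1301 and 800 cells with median depths of 8438, 7739, 7071 and 6458 UMIs) serve as the measure of free RNA for genes that T cells do not use. All intervals are exact at the 95% level and cover counting error only, not the spread between mice or libraries. Those of CPM and of ratios treat UMIs as independent, so they also leave out the spread between cells.

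The label of the cells was checked on genes outside the rule. Zbtb46, a transcription factor of committed conventional dendritic cells (GRCm39 chr2:181012111-181104879, minus strand), was at 75.4, 49.1, 82.7 and 94.2 CPM and had a UMI in 18, 20, 38 and 32 members (48.6, 48.8, 54.3 and 52.5%), against 2.80, 1.03, 1.84 and 2% of T cells. In classical monocytes (Ccr2, Ly6c2 and Csf1r) Zbtb46 was at 0 to 2.83 CPM, in patrolling monocytes (Ace or Treml4, with Csf1r) at 0.735 to 2.73 CPM and in Prg4 macrophages at 0 to 3.62 CPM. Itgax, the integrin CD11c, was at 132, 73.0, 92.9 and 70.1 CPM, above classical monocytes (0.944 to 10.2 CPM) and less clearly above patrolling monocytes (37.3 to 69.8 CPM). Both genes were thus higher in the members of all 4 libraries than in any of the monocyte and macrophage sets of the 4 libraries, and each was seen in only part of the cells.

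Markers of the other cell types were low but present. Csf1r, the receptor for the macrophage growth factor CSF1, was at 152, 171, 113 and 124 CPM in the members, and at 398 to 555 CPM in classical and 585 to 712 CPM in patrolling monocytes. Ly6c2, a surface protein of classical monocytes, was at 60.6, 12.6, 124 and 11.5 CPM against 844 to 1376 CPM in those monocytes. Both monocyte sets were chosen by a UMI of Csf1r, and the classical set also by Ly6c2. Their higher levels of these genes are thus fixed in part and are no test. Gata6, which defines large peritoneal macrophages, was at 0, 0, 0 and 1.05 CPM against 76.6 to 102 CPM in the Prg4 macrophages. The 10 listed T cell genes summed to 14.8, 25.3, 21.1 and 12.6 CPM, against 3957, 3660.3, 4259 and 3829.7 CPM in T cells, and the 13 B cell genes to 143, 181, 164 and 214 CPM. The T cell list holds Cd3e, which also chose the T cells, and the B cell list holds Cd79a and Ms4a1. As genes of the rule, these fix the low sums in part. The rule allowed 1 Cd79a UMI, which 1, 9, 8 and 12 members held. Whole lists were less clear than these genes, since the cDC2 list summed to 1521, 2821, 2193 and 3509 CPM in the members and to 1699.8, 1263, 1479 and 1629 CPM in classical monocytes, and the small peritoneal macrophage list to 1103, 6647, 3663 and 5567 CPM in the members and 8147, 6717, 7079 and 7591 CPM in Prg4 macrophages. Both of these lists hold Cd209a, a gene of the rule. In P-LC24 the cDC2 list was thus lower in the members than in the monocytes, and in P-HC24 the sum of the macrophage list was close to that of the Prg4 macrophages. Retnla of this list had 2496 of the 712172 UMIs of the P-HC24 members. Of these Retnla UMIs 99.8% lay in 6 cells, so the sum does not describe most members. Single members departed from the label, among them the Retnla-rich and Apoe-rich cells described below, but 18 further members held at least 100 UMIs of the lysozyme Lyz2 and 74.5% of the members' Ly6c2 UMIs lay outside both sets.

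**Figure D1:**
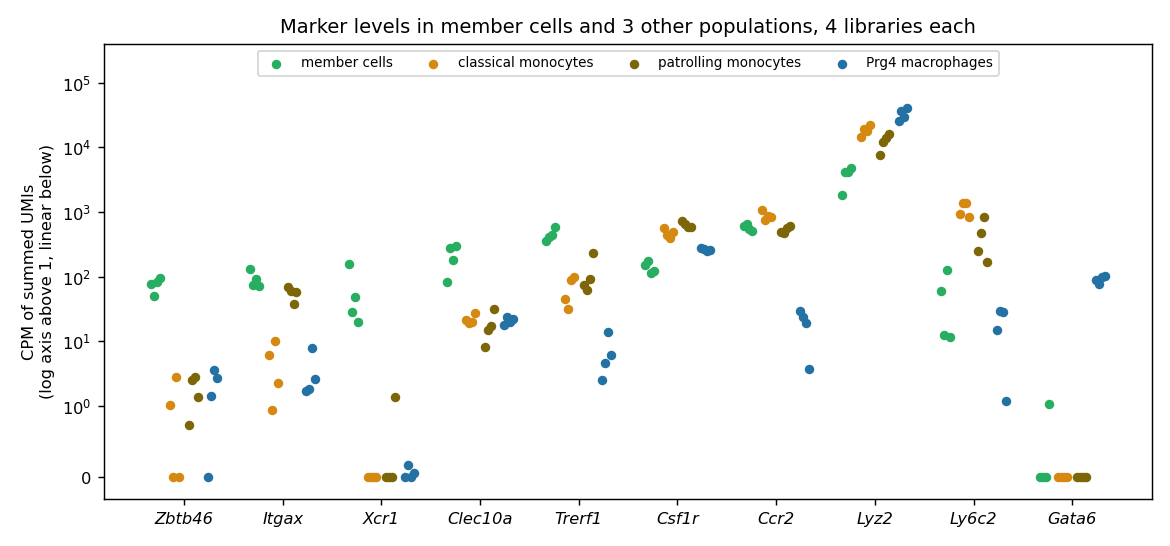
CPM of 10 genes (vertical axis, log scale above 1 and linear below) in the member cells, classical monocytes, patrolling monocytes and Prg4 macrophages, with 1 point for each of the 4 libraries. Zbtb46 was between 49.1 and 94.2 CPM in the members and at most 3.62 CPM in the other populations, while Csf1r, Lyz2 and Ly6c2 were lower in the members than in classical monocytes. Csf1r and Ly6c2 were among the genes that chose the classical monocytes.

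The genes outside the rule that stood out most against all other kept cells, taken by the lowest of the 4 library ratios, were led by Klri1 (38.5-fold or more in every library), an inhibitory lectin-like receptor, and Clec10a (37.7-fold), a lectin for galactose-type sugars. Next came the serotonin receptor Htr7 (35.0-fold), the ubiquitin ligase gene Rnf150 (34.2-fold) and Arhgap22 (25.2-fold), a regulator of the small GTPase Rac. Batf3, a factor that cDC1 need but that cDC2 also carry, stood at 140.4, 160.1, 189 and 138 CPM and 17.1-fold or more above the other kept cells. Since the members were chosen among these cells, the ratios describe the set and are no test. Batf3 was spread evenly, with a UMI in 33, 34, 52 and 44 members.

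How many cells lay near the limits of the rule differed between its conditions. The lowest H2-Aa count of a member was 21, 11, 10 and 10 UMIs, and 0, 1, 6 and 2 members held 10 to 14 UMIs, while 3, 1, 1 and 1 cells with 5 to 9 UMIs met every other limit. A single UMI of Flt3 or Cd209a carried 5, 13, 9 and 11 members, and 35, 49, 47 and 59 cells without a UMI of either met every other limit. The Cd79a limit alone kept out 8, 31, 20 and 53 cells, beside 37, 41, 70 and 61 members, and the Siglech limit alone 6, 2, 2 and 1. The 2 HC libraries thus lost the most cells to the Cd79a limit.

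Members made up 0.720% of kept cells in P-LC24 (0.507 to 0.990), 0.593% in P-HC24 (0.426 to 0.804), 0.944% in I-LC32 (0.736 to 1.19) and 0.830% in I-HC32 (0.635 to 1.06). The intervals of the LC and HC library overlapped at both weeks, and a difference in share was not tested. The denominator matters for these shares, because the 2 HC libraries held 474 and 698 Prg4 macrophages and the LC libraries 37 and 76. Without Prg4 macrophages and B cells among the kept cells the shares were 1.78, 1.92, 2.58 and 2.97%.

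The members were divided into 4 groups, each cell going to the first it met. The Ccr7 group held Ccr7 and at least 1 UMI of Fscn1, Ccl22 or Cacnb3, the Xcr1/Clec9a group held at least 2 UMIs of Xcr1 and Clec9a together, the Cd209a group held Cd209a, and the remaining group was in the rule through Flt3 alone. The Xcr1/Clec9a group had 14, 8, 9 and 8 cells, or 37.8, 19.5, 12.9 and 13.1% of the members. The Cd209a group had 14, 26, 44 and 42 cells (37.8, 63.4, 62.9 and 68.9%), the Ccr7 group 2, 3, 10 and 1 cells (5.41, 7.32, 14.3 and 1.64%) and the remaining group 7, 4, 7 and 10 cells. By this gate P-LC24 had as many Xcr1/Clec9a as Cd209a cells, while in the other libraries Cd209a cells were the majority. The interval of the Xcr1/Clec9a share was 22.5 to 55.2% in P-LC24 and 8.82 to 34.9% in P-HC24, which overlap. After each cell was thinned to 3000 UMIs, a depth that every member reached, the shares were 21.6, 4.88, 7.14 and 3.28% for Xcr1/Clec9a and 29.7, 48.8, 40 and 60.7% for Cd209a. With 1 UMI of Xcr1 or Clec9a as the gate the shares were 45.9, 41.5, 30 and 21.3% for Xcr1/Clec9a and 29.7, 41.5, 47.1 and 60.7% for Cd209a, so the week 24 libraries then differed little in Xcr1/Clec9a cells and P-HC24 had as many of them as Cd209a cells.

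**Figure D2:**
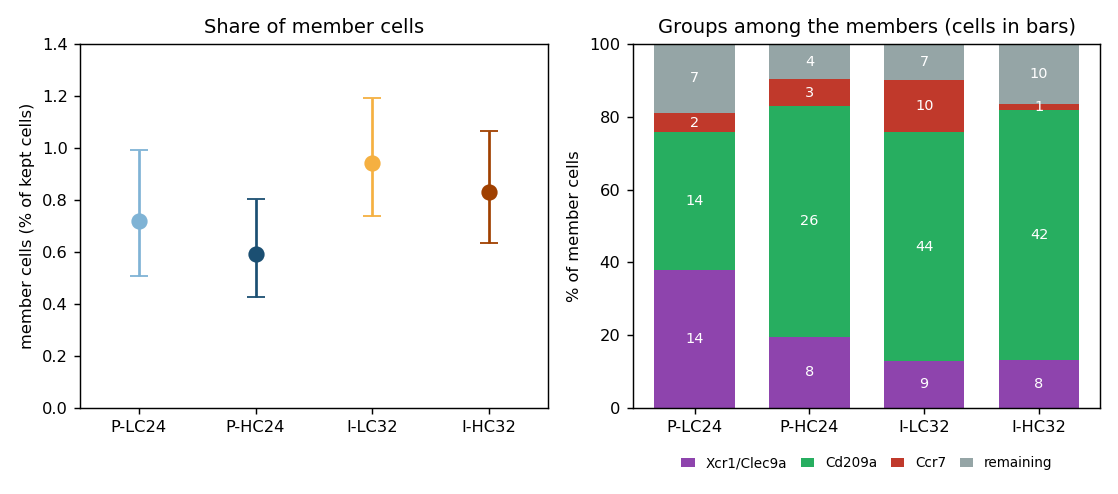
Left, members as a percent of kept cells in each library with exact 95% intervals; right, the 4 groups as a percent of the members of each library, with the number of cells in each bar. The Xcr1/Clec9a group held 14 of 37 members in P-LC24 and 8 to 9 members in each other library, and the Ccr7 group held 10 members in I-LC32 and 1 in I-HC32.

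By the genes of the rule themselves, 21, 10, 24 and 16 members held Flt3 without Cd209a, 13, 12, 26 and 29 held both, and 3, 19, 20 and 16 held Cd209a without Flt3. Cd209a (GRCm39 chr8:3793397-3798984, minus strand) was at 262, 711, 427 and 770.3 CPM and Flt3 (chr5:147267551-147337483, minus strand) at 245, 92.7, 152 and 183 CPM. As a description, cells with Cd209a alone were 8.11% of the P-LC24 members and 46.3% of those of P-HC24, against 28.6 and 26.2% at week 32.

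The groups are described here over the 4 libraries together and without a test, since the same counts formed them. The Xcr1/Clec9a group carried the cDC1 genes. Xcr1 and Clec9a define it and are no finding, but Irf8 was at 934 CPM in its 39 cells against 22.6 CPM in the 126 cells of the Cd209a group, with a UMI in 27 and 26 cells. The adhesion molecule Cadm1, which marks cDC1, was at 561 against 11.8 CPM, and Wdfy4, needed for cross-presentation, at 1159 against 153 CPM. Tlr3, the sensor of double-stranded RNA, was at 110.3 against 3.30 CPM, and the lipid amidase Naaa at 539 against 196 CPM. Sirpa, the cDC2 receptor for CD47, ran the other way at 53.3 against 158 CPM. B cells also use Irf8 and Wdfy4, with UMIs in 55.6 to 63.9% and 77.5 to 87.9% of them, but Cadm1 and Tlr3 were rare in B cells (0.506 to 0.667% and 1.05 to 1.31%).

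Not every cell of this group carried Irf8. The 27 cells with an Irf8 UMI (12, 3, 7 and 5) held Xcr1 in 23 cells and Cd209a in 2, and accounted for 83.4% of the members' Irf8 UMIs and 99.0% of their Xcr1 UMIs. Irf8 and the gate on Xcr1 and Clec9a chose these cells, so both shares are a description only. The 12 cells without an Irf8 UMI (2, 5, 2 and 3) held Xcr1 in 1 cell, Cd209a in 9 and Cd226 in 7, and had entered mostly through Clec9a. Clec9a by itself was not specific, since 38 of its 68 cells also held Cd209a, while 22 of the 24 cells with Xcr1 held Clec9a and 1 held Cd209a. Xcr1 (GRCm39 chr9:123681380-123691094, minus strand) had a UMI in 11, 2, 6 and 5 members and in 0.323, 0, 0 and 0% of T cells.

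The Cd209a group carried cDC2 genes. Clec10a (GRCm39 chr11:70047023-70061660, plus strand) was at 312 CPM with a UMI in 92 of 126 cells, against 74.4 CPM in the Xcr1/Clec9a group, 31.2 CPM in the Ccr7 group and 69.2 CPM in the remaining group. Mgl2, the neighbouring and related lectin gene (chr11:70020954-70028376, plus strand), was at 378 CPM but in 49 cells only, and 50 of the 57 members with Mgl2 also held Clec10a. Irf4, the factor cDC2 depend on, was at 109 against 33.5 CPM in the Xcr1/Clec9a group, and Itgam, the integrin CD11b, at 258 against 50.8 CPM. The group also held the monocyte and macrophage lysozyme Lyz2 at 5312 against 1430.2 CPM, and Csf1r at 166 against 53.3 CPM. Ccr2, which draws monocytes and dendritic cell precursors out of the bone marrow, differed little between these groups at 655 and 563 CPM.

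The 16 cells of the Ccr7 group shared genes that were low in the other members. Besides its defining genes Ccr7, Fscn1 and Cacnb3, it held the amino acid oxidase Il4i1 at 637 CPM in all 16 cells, the cytokine signaling inhibitor Socs2 at 449.6 CPM in 15 cells and the membrane protein Tmem123 at 1923 CPM. The values in the Cd209a group were 9.43, 0.471 and 81.1 CPM. Relb, an NF-kappaB subunit of mature dendritic cells, was at 997 against 77.3 CPM, and Il12b, the shared chain of interleukins 12 and 23, at 904 CPM in 9 of 16 cells against 0 UMIs in the Cd209a group. The chemokine Ccl5, which attracts T cells, was at 8427 CPM in the group against 52.3 CPM in the Cd209a group. Zbtb46 was at 240.4 CPM in 15 of the 16 cells, while Lyz2 was at 44.5 CPM, Ccr2 at 4.45 CPM and the invariant chain Cd74 at 11664 CPM, against 22716 CPM in the Cd209a group. Of the 24 members with a Ccr7 UMI, 18 also held Il7r, the receptor for interleukin 7 and TSLP.

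**Figure D3:**
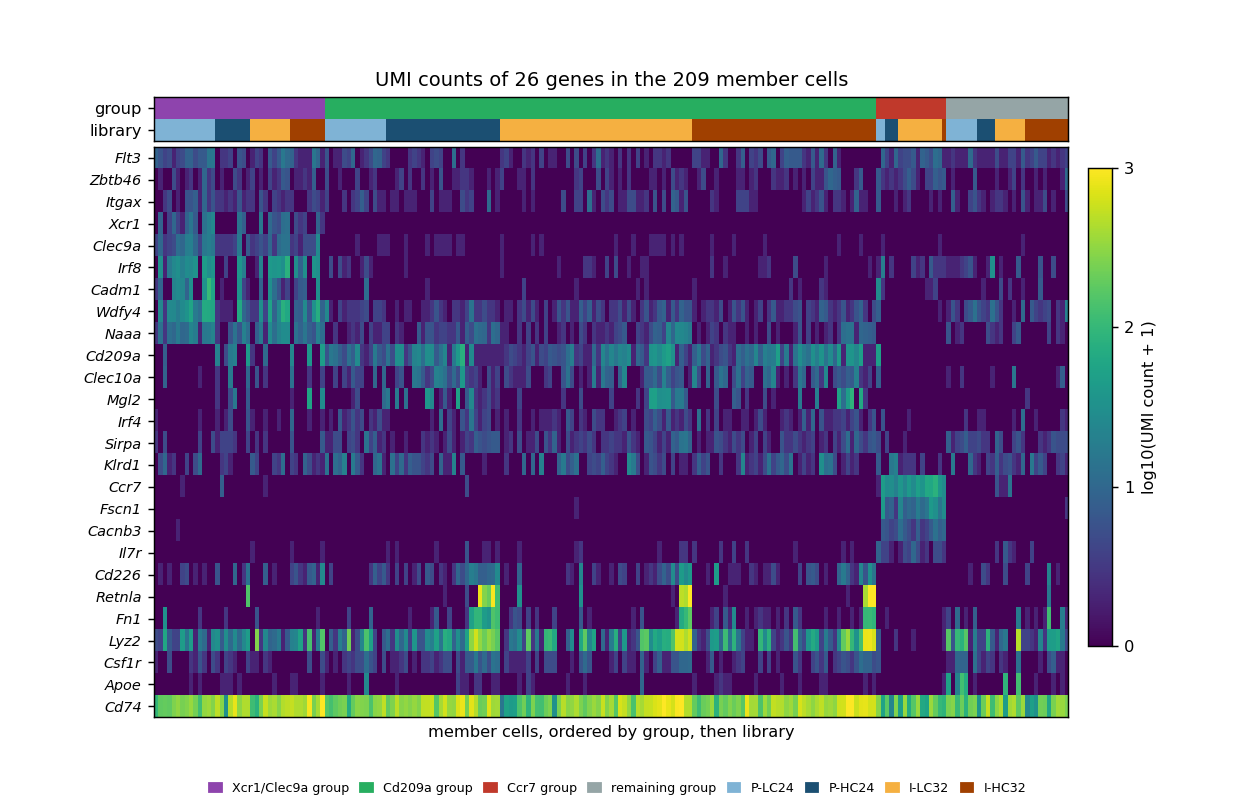
UMI counts of 26 genes (rows, colour as log10 of the count plus 1) in each of the 209 member cells (columns), ordered by group and then by library. Irf8 and Cadm1 lie mainly in the Xcr1/Clec9a group, Ccr7, Fscn1 and Cacnb3 in the Ccr7 group, and Retnla in 12 cells. These 12 cells held 69.2% of the Fn1 UMIs and 38.5% of the Lyz2 UMIs. Lyz2 reached 838 UMIs in them and 625 UMIs in other members.

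Those 12 cells were set apart after their values had been seen, as members with at least 100 Retnla UMIs. Retnla encodes the secreted protein RELM-alpha (GRCm39 chr16:48662895-48664824, plus strand), which small peritoneal macrophages and macrophages activated by interleukins 4 and 13 make. They numbered 0, 6, 3 and 3, and 11 of them lay in the Cd209a group. The 12 cells held 119 to 1229 Retnla UMIs each and 98.8% of all Retnla UMIs of the members. Flt3 was at 0 UMIs in all 12, and 9 of the 12 met the rule through exactly 1 Cd209a UMI. Cd226, an adhesion receptor also found on small peritoneal macrophages, had 5 to 43 UMIs in every one of them, the extracellular matrix gene Fn1 was present in 11 cells, Zbtb46 in 5 and Irf8 in 1. Their median depth was 29944 UMIs, and they held 69.2% of the members' Fn1 UMIs and 38.5% of their Lyz2 UMIs.

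By library, Retnla summed to 0, 2496, 1987 and 2675 UMIs in 0, 8, 6 and 6 members. With 0 of 37 cells, the share of P-LC24 members with a Retnla UMI had an exact upper limit of 9.49%. Against the floor of 3 counts Retnla was at least 790.3-fold higher in P-HC24 than in P-LC24, a value that 6 cells carried. Free Retnla RNA was present in the libraries, with a UMI in 0.108, 2.63, 0.846 and 4.38% of T cells. Patrolling monocytes of the same libraries held Retnla at 481, 4074, 0 and 4875 CPM. Of the 20 members with any Retnla UMI, 19 held Cd226 and 2 held Flt3.

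A second set, also described after its values were seen, had at least 10 UMIs of Apoe, the apolipoprotein of macrophages and hepatocytes. It numbered 5, 0, 2 and 0 cells, of which 6 lay in the remaining group. Flt3 had 1 or 2 UMIs in all 7 cells and Zbtb46 had 0 UMIs. These cells held 98.7% of the Apoe UMIs of the P-LC24 members and 92.7% of those of I-LC32. Most cells of both sets therefore met the rule on few UMIs of Flt3 or Cd209a. The ratio without the Retnla-rich cells is given where leaving them out moved a printed ratio by more than 1.5-fold.

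In the comparison of the HC and the LC library at week 24, cDC2 genes such as Clec10a and Mgl2 were higher and most cDC1 genes lower. Of 2233 genes compared in Prog, 249 (11.2%) had 1.5 times the P-LC24 level or more in P-HC24 and 434 (19.4%) were lower by the same factor, which is what called means here. Genes were compared if the pair of libraries held 100 or more UMIs of them and if 10% or more of the members of one library had a UMI. The median gene was at a log2 ratio of -0.09, and relative to it 314 genes were higher and 349 lower. Log2 ratios of CPM are followed by their counting interval. Fewer cells of a kind and less RNA of a gene per cell add up in these sums, so the number of cells with a UMI is given beside them.

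Of the cDC1 list, 12 genes were compared, 0 were called higher and 8 lower, with a median log2 ratio of -1.82. Irf8 (GRCm39 chr8:121463096-121485659, plus strand) was at 541, 131, 244 and 163 CPM in 28, 7, 25 and 16 members, and its Prog log2 ratio was -2.05 (-2.39 to -1.72). Cadm1 was at 519, 56.2, 64.2 and 61.8 CPM in 13, 6, 16 and 10 members (log2 ratio -3.21, -3.72 to -2.73), and 1 cell held 82.5% of its UMIs in P-HC24. P-LC24 stood above all other libraries for both genes. Wdfy4 was at 763, 218, 341 and 316 CPM (log2 ratio -1.81, -2.08 to -1.55) and Ppt1, a lysosomal thioesterase, at 517, 70.2, 165 and 113 CPM (log2 ratio -2.88, -3.34 to -2.45). Xcr1 was at 157, 28.1, 48.1 and 19.9 CPM (log2 ratio -2.48, -3.25 to -1.78) and Clec9a (GRCm39 chr6:129385825-129401726, plus strand) at 209.9, 59.0, 61.6 and 52.3 CPM in 18, 16, 22 and 12 members (log2 ratio -1.83, -2.36 to -1.33). Batf3, Naaa and the mucin-like Cd24a were within 1.5-fold at 0.19, -0.24 and 0.35.

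P-HC24 had fewer Xcr1/Clec9a cells than P-LC24 (8 and 14), and the make-up of the group differed. Within the Xcr1/Clec9a group, Irf8 was at 1059, 437, 1287 and 715 CPM in 12, 3, 7 and 5 of 14, 8, 9 and 8 cells, and Cadm1 at 1043, 291, 299.7 and 249 CPM in 10, 4, 6 and 4 cells. In P-HC24 5 of the 8 cells of the group held no Irf8 UMI, and 4 of those held Cd209a. In the cells of the group with an Xcr1 UMI (11, 2, 6 and 5 cells), Irf8 was at 1270.4, 1440.1, 1658 and 800.0 CPM, with intervals of 1134 to 1419 CPM for P-LC24 and 1082 to 1879 CPM for P-HC24. The intervals overlapped, but they cover counting error only and P-HC24 had 2 such cells. A difference in the Irf8 level of Xcr1-bearing cells was not tested. Within the Cd209a group Irf8 had 17, 1, 17 and 13 UMIs in 7, 1, 10 and 8 cells, too few for a ratio.

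Of 10 cDC2 genes compared, 6 were higher and 2 lower, at a median of 1.01. The list holds Cd209a, a gene of the rule. Mgl2 was at 22.2, 330.0, 215 and 430.2 CPM in 3, 21, 15 and 18 members (log2 ratio 3.90, 3.14 to 4.76). Clec10a was at 82.8, 279, 179 and 300.4 CPM in 13, 25, 34 and 37 members (log2 ratio 1.76, 1.32 to 2.21), and the interval of P-LC24 lay below those of the other libraries for both lectins. Tnip3, an inhibitor of NF-kappaB signaling, was at 69.5, 505, 315 and 493 CPM (log2 ratio 2.86, 2.42 to 3.33) and Itgam at 87.2, 226, 161 and 254 CPM (log2 ratio 1.37, 0.94 to 1.83). Il1r2, the decoy receptor for interleukin 1, went the other way at 124, 44.9, 125 and 300.4 CPM (log2 ratio -1.47, -2.10 to -0.86). Irf4 was at 56.2, 88.5, 74.3 and 99.4 CPM (log2 ratio 0.66, 0.05 to 1.28). Within the Cd209a group, in 14 and 26 cells, the log2 ratio was 2.63 for Mgl2, 1.04 for Clec10a, 1.83 for Tnip3 and 0.77 for Itgam, but -0.38 for Irf4, and the median of the list there was 0.10. Retnla-rich cells lay in this group in P-HC24 and not in P-LC24.

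Of the core list shared by conventional dendritic cells, 2 of 11 genes compared were higher and 5 lower in P-HC24. The list holds Flt3, a gene of the rule, which is 1 of the 5 lower genes. Btla, an inhibitory receptor, was at 209.9, 32.3, 67.5 and 39.8 CPM (log2 ratio -2.70, -3.40 to -2.06), Bcl11a, a transcription factor of dendritic cell and B cell precursors, at 191, 56.2, 106 and 96.3 CPM (log2 ratio -1.76, -2.31 to -1.24), and Itgax at -0.85 (-1.37 to -0.34). B cells use Btla and Bcl11a too, with UMIs in 66.2 to 81.4% and 56.0 to 72.5% of them. Relb was higher in P-HC24 at 1.18 (0.64 to 1.73).

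Genes that small peritoneal macrophages share with these cells were among the highest ratios. Of 8 list genes compared, 7 were higher and 0 lower, with a median of 2.72. The list holds Cd209a and shares Mgl2 and Irf4 with the cDC2 list. Fn1 was at 97.6, 837, 340.3 and 519 CPM in 8, 14, 16 and 29 members (log2 ratio 3.10, 2.73 to 3.49), Cd226 at 48.8, 247, 186 and 273 CPM in 12, 26, 25 and 36 members (log2 ratio 2.34, 1.80 to 2.92) and the Fc receptor-like gene Fcrls at 1.48, 271, 188 and 164 CPM in 1, 14, 10 and 14 members (log2 ratio 7.52, 5.02 to 12.83). P-LC24 was the lowest library for each. Without the 12 Retnla-rich cells the log2 ratio of Fn1 was 1.58 and that of Fcrls 6.63. Free RNA of Fn1 was also higher in the HC libraries, with a UMI in 1.61, 12.2, 2.38 and 21.4% of T cells. T cells use Cd226 themselves, and B cells held it in 0.496 to 1.09% of cells. Within the Cd209a group the ratio of Cd226 was 1.58 and the median of the list 1.58.

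Monocyte and macrophage genes were split. Of the lists, 3 of 7 monocyte genes compared were higher and 1 lower, and 2 of 4 macrophage genes were higher and 1 lower. Mrc1, the mannose receptor, was at 44.3, 522, 213 and 386 CPM in 11, 26, 22 and 26 members (log2 ratio 3.56, 3.02 to 4.15), with UMIs in 0.215 to 0.342% of T cells, and its ratio was 2.20 without the Retnla-rich cells. C1qb, a complement subunit, was at 32.5, 358, 93.7 and 132 CPM in 3, 8, 8 and 14 members (log2 ratio 3.46, 2.83 to 4.16), with a UMI in 0.969, 4.57, 0.846 and 10.2% of T cells. The Retnla-rich cells held 59.6% of its P-HC24 UMIs, and without them the ratio was 2.52. Lyz2 was at 1861, 4161, 4151 and 4836 CPM (log2 ratio 1.16, 1.07 to 1.26), but it had a UMI in 9.26, 48.7, 9.84 and 71% of T cells, and its log2 ratio over all other kept cells was 2.32. Cd14, the lipopolysaccharide co-receptor, was at 56.2, 225, 64.2 and 159 CPM (log2 ratio 2.00, 1.48 to 2.55) and had a log2 ratio of 2.48 over the other kept cells. The part of free RNA in the Lyz2, Cd14 and C1qb values was not tested. Csf1r was nearly level at 0.17 (-0.22 to 0.56).

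The highest ratios by the naming rule, besides those above, included Lyz1, a second lysozyme, at 2.96, 503, 662 and 226 CPM in 2, 9, 6 and 8 members (log2 ratio 7.41, 5.55 to 10.46, and 2.10 on 2 and 7 UMIs without the Retnla-rich cells), Capg (log2 ratio 3.18, 2.51 to 3.92), the phospholipid transfer protein Pltp at 97.6, 885, 594 and 700.2 CPM in 9, 28, 30 and 33 members (log2 ratio 3.18, 2.81 to 3.57) and the chemokine Ccl9 at 154, 896, 434 and 481 CPM (log2 ratio 2.54, 2.24 to 2.86). One cell held 59.5% of the Lyz1 UMIs in P-HC24, while Pltp was spread over the members. The lowest ratios included Havcr2, the receptor TIM-3, at 251, 44.9, 55.7 and 76.4 CPM in 23, 10, 19 and 25 members (log2 ratio -2.48, -3.08 to -1.93, and -2.75 within the Cd209a group on 24 and 8 UMIs). Plac8, a cysteine-rich protein of plasmacytoid cells, monocytes and B cells, was at 1138, 268, 682 and 427 CPM (log2 ratio -2.09, -2.32 to -1.86). Apoe was at 439, 22.5, 197 and 20.9 CPM (log2 ratio -4.29, -5.11 to -3.56), which followed the 5 Apoe-rich cells of P-LC24, and T cells held it in 6.03, 14.6, 4.61 and 21.5% of cells.

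**Figure D4:**
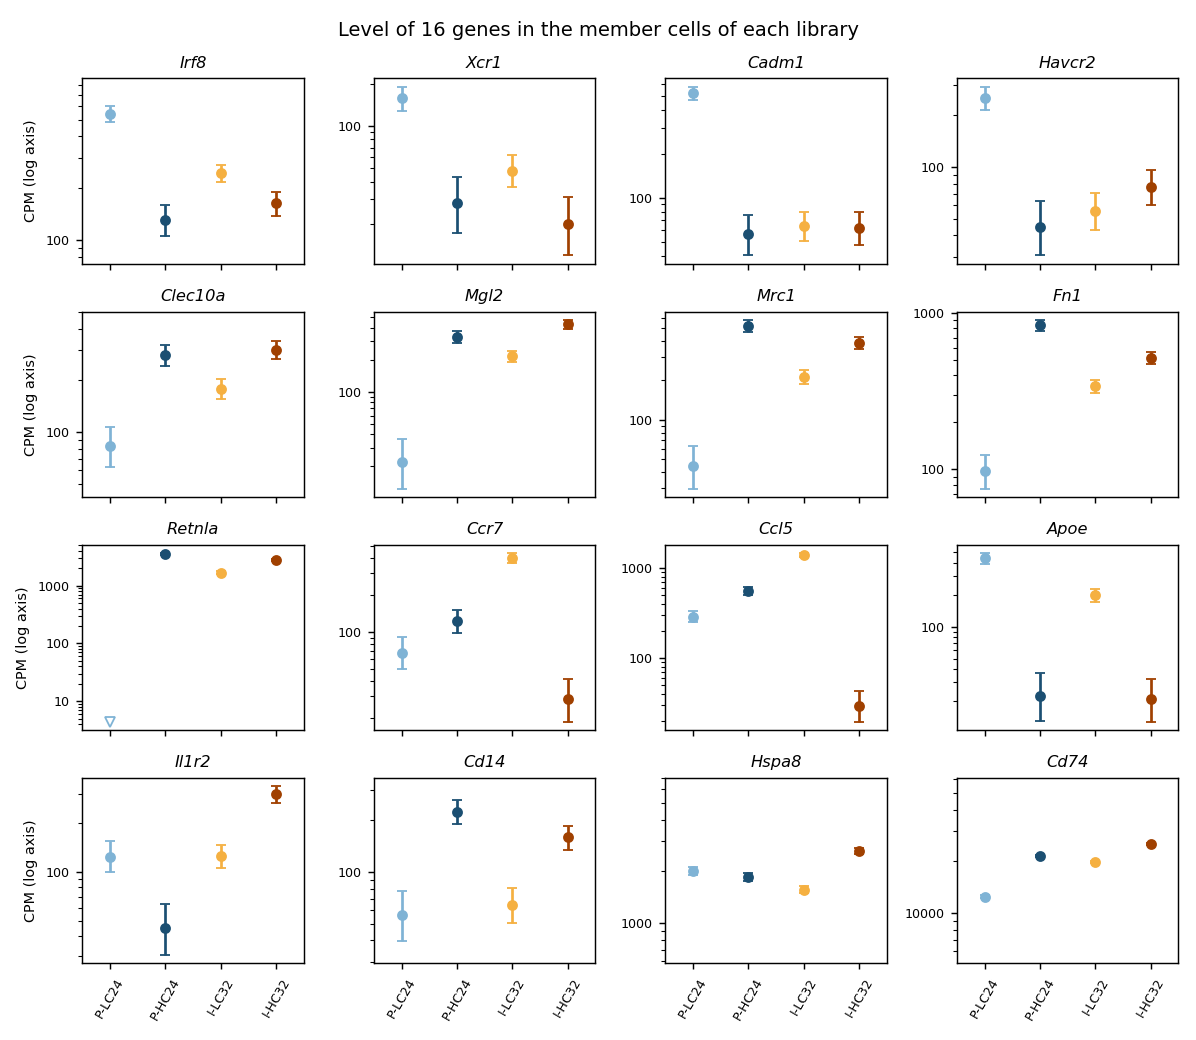
CPM of 16 genes in the member cells of each library (log axis), with exact Poisson 95% intervals as bars; the open triangle for Retnla in P-LC24 marks the level that 3 counts would give. P-LC24 was highest for Irf8, Xcr1, Cadm1 and Havcr2 and lowest for Clec10a, Mgl2, Mrc1 and Fn1, while Ccr7 and Ccl5 were highest in I-LC32 and lowest in I-HC32.

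At week 32, after 8 weeks on 0.05% cholesterol in both arms, fewer genes stood apart between the libraries. Of 3359 genes compared in Int, 171 (5.09%) were called higher and 224 (6.67%) called lower in I-HC32, with a median log2 ratio of 0.01. More members at week 32 (70 and 61 against 37 and 41) gave narrower counting intervals and let more genes enter, so the counts of the 2 comparisons are not on the same basis. Genes of the Ccr7 program were lower in I-HC32, and several cDC2 genes were higher.

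The mature migratory list had 0 genes higher and 6 lower of 7 compared, at a median of -1.63. Ccr7 (GRCm39 chr11:99035022-99045911, minus strand) was at 68.0, 122, 401 and 28.3 CPM in 3, 5, 15 and 1 members, and its Int log2 ratio was -3.83 (-4.44 to -3.27). Fscn1 was at 62.1, 22.5, 147 and 29.3 CPM in 1, 3, 11 and 2 members (log2 ratio -2.33, -2.96 to -1.74), Il4i1 at 34.0, 30.9, 111 and 13.6 CPM (log2 ratio -3.02, -3.97 to -2.20) and Tmem123 at 114, 192, 314 and 102 CPM (log2 ratio -1.63, -1.97 to -1.30). The Ccr7 group held 10 members in the week 32 LC library and 1 in the HC library. The exact interval of its share of the members was 7.07 to 24.7% in I-LC32 and 0.04 to 8.80% in I-HC32, which overlap. In the Cd209a group the Int log2 ratio of Tmem123 was 0.09 on 57 and 54 UMIs, while Il4i1 had 3 and 4 UMIs. T and B cells use Ccr7 as well, with a UMI in 54.7 to 71.9% and 62.5 to 65.4% of cells, whereas Fscn1 was in at most 0.215% of T cells. Ccl5 was at 288, 564, 1410.0 and 29.3 CPM (log2 ratio -5.59, -6.18 to -5.05) and followed the same cells, with 11 and 13 UMIs in the Cd209a group. In Prog, 4 of 5 genes of the list were higher and 0 lower, but 1 cell held 95.7% of the Ccr7 UMIs of P-LC24.

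Of 13 cDC2 genes compared in Int, 7 were higher in I-HC32 and 0 lower, at a median of 0.65 and of 0.32 within the Cd209a group. The Int log2 ratio was 1.27 (0.97 to 1.56) for Il1r2, 1.00 (0.77 to 1.23) for Mgl2, 0.75 (0.49 to 1.01) for Clec10a, 0.66 (0.38 to 0.94) for Itgam and 0.65 (0.45 to 0.85) for Tnip3. Clec10a had a UMI in 34 and 37 cells, of 70 and 61 members. Il1r2 was lowest in P-HC24 and highest in I-HC32, and within the Cd209a group its ratio was -1.86 in Prog and 1.37 in Int.

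The cDC1 list had 0 genes higher and 2 lower of 10 compared, at a median of -0.50. Irf8 was at -0.58 (-0.87 to -0.29) and Naaa at -0.58 (-0.85 to -0.32), while Cadm1 (log2 ratio -0.06, -0.57 to 0.45) and Wdfy4 (log2 ratio -0.11, -0.33 to 0.11) were near level. Xcr1/Clec9a cells numbered 9 and 8. The small peritoneal macrophage list, which holds Cd209a, had 3 of 7 genes higher and 0 lower. Fn1 was at 0.61 (0.42 to 0.80), and 2.13 without the 3 Retnla-rich cells of each library, which held 86.4% of its UMIs in I-LC32 and 59.9% in the HC library. Cd226 was at 0.56 (0.29 to 0.82) and 1.18 without those cells, and Fcrls at -0.20 (-0.50 to 0.10) and 0.57. Retnla was not compared, as under 10% of the members held it, and outside the Retnla-rich cells it had 64 UMIs in I-LC32 and 17 in the HC library. The median of that list was 0.56 over all members and 0.06 within the Cd209a group.

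Among single genes, the highest Int ratio was that of Mpp7, a scaffold protein of cell polarity, at 99.0, 105, 43.1 and 160.1 CPM in 17, 20, 23 and 40 members (log2 ratio 1.89, 1.43 to 2.38). In all other kept cells the log2 ratio of this gene was 1.39. The chemokine Ccl4 was at 310.4, 199, 56.6 and 177 CPM (log2 ratio 1.64, 1.23 to 2.08), with 1 cell holding 45.0% of its UMIs in I-HC32, and the orphan receptor Gpr141 was at 176, 75.8, 87.0 and 212 CPM (log2 ratio 1.29, 0.94 to 1.65). In the other kept cells the ratio of Gpr141 was -2.05, in the opposite direction. The lowest ratios after Ccr7 and Ccl5 included Apoe (log2 ratio -3.23, -3.97 to -2.57), the transcriptional corepressor Atxn1 (log2 ratio -2.90, -3.56 to -2.30), the phospholipid-binding protein Anxa3 (log2 ratio -2.31, -2.89 to -1.78) and the chemokine Cxcl16 (log2 ratio -2.12, -2.69 to -1.58). Without the Retnla-rich cells Anxa3 was at -2.99. The Cd209a group held few UMIs of these genes, with 3 and 4 of Atxn1, 19 and 21 of Anxa3 and 22 and 20 of Cxcl16.

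Genes of MHC class II presentation were abundant in the members, which the rule fixed in part by requiring H2-Aa. The 14 genes of the MHC class II list, H2-Aa included, summed to 32825, 50398, 45329.8 and 57491 CPM, against 10794, 13920.5, 14944 and 14331 CPM in all other kept cells. Cd74 was at 12473, 21484, 19716 and 25304 CPM, with log2 ratios of 0.78 (0.75 to 0.82) in Prog and 0.36 (0.33 to 0.39) in Int, and H2-Ab1 and H2-Eb1 were at 0.51 and 0.54 in Prog. H2-DMb2, part of the peptide exchange factor, was at 45.8, 145, 93.7 and 184 CPM (log2 ratio 1.66, 1.07 to 2.29 in Prog and log2 ratio 0.97, 0.62 to 1.33 in Int). Ciita, the transcriptional activator of class II genes, went the other way in Prog at 278, 82.8, 211 and 185 CPM (log2 ratio -1.75, -2.19 to -1.32), and T cells held it in 0.108 to 0.571% of cells. In Prog 4 of 13 class II genes were higher and 2 lower, and in Int 1 of 14 were higher and 0 lower. H2-Aa, a gene of the rule, is 1 of the 4 higher genes in Prog (log2 ratio 0.67). The class I genes summed to 6538, 7472, 8487 and 7116 CPM, against 6529, 8538, 8137 and 8689.6 CPM in Prg4 macrophages, and 1 of 13 were higher and 1 lower in Prog, and 1 of 14 higher and 3 lower in Int.

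Costimulatory and coinhibitory genes were mostly within 1.5-fold, with 1 of 6 higher and 1 lower in Prog and 1 of 6 higher and 0 lower in Int. Cd86, a ligand of CD28, was at 696, 480.2, 640.0 and 753 CPM (log2 ratio -0.54, -0.74 to -0.33 in Prog), and the related ligand Cd80 at 124, 191, 149 and 253 CPM (log2 ratio 0.62, 0.22 to 1.03 in Prog and log2 ratio 0.77, 0.48 to 1.06 in Int). Of the lectins of the Cd209 and Clec10a families, the 3 compared were higher in both comparisons, and they are Cd209a of the rule, Clec10a and Mgl2. Cd209d was seen in 1, 6, 11 and 11 members and Cd209b in 2, 1, 0 and 3, too few to compare.

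Chemokine ligands showed 5 genes higher and 2 lower of 7 in Prog and 2 higher and 2 lower of 7 in Int. Ccl6, which attracts myeloid cells, was at 374, 1755, 743 and 999.5 CPM in 29, 36, 48 and 51 members (log2 ratio 2.23, 2.03 to 2.43 in Prog and log2 ratio 0.43, 0.29 to 0.56 in Int). Among the receptors, 2 of 5 were higher and 2 lower in Prog and 1 of 6 higher and 1 lower in Int, with Ccr2 nearly level at 615, 659, 554 and 511 CPM. Of the pattern recognition receptors, 4 of 8 were higher and 3 lower in Prog and 3 of 9 higher and 0 lower in Int. They included Clec4b1, a lectin of cDC2, at 69.5, 227, 122 and 208 CPM (log2 ratio 1.71, 1.23 to 2.21 in Prog and log2 ratio 0.78, 0.46 to 1.10 in Int). Il1b, the main inflammatory interleukin of the members, was at 485, 1408, 817 and 1139.8 CPM in 28, 39, 52 and 50 members (log2 ratio 1.54, 1.36 to 1.72 in Prog and log2 ratio 0.48, 0.35 to 0.61 in Int). P-HC24 was the highest library, and the Prog ratio in the other kept cells was -0.17. Within the Cd209a group the Prog log2 ratio was smaller, at 0.64 for Il1b and 0.70 for Clec4b1.

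Heat shock chaperones were higher in I-HC32 than in I-LC32. Of the heat shock chaperones, 0 of 6 were higher and 2 lower in Prog and 5 of 7 higher and 0 lower in Int. Hspa8 was at 2012, 1853, 1568 and 2631 CPM (log2 ratio 0.75, 0.66 to 0.83 in Int), and the ratio in the other kept cells was 0.72, so the members did not stand out. Among immediate early genes, which respond within minutes to stimulation or tissue digestion, 1 of 14 were higher and 3 lower in Prog and 1 of 14 higher and 0 lower in Int, with Fos at 1763, 566, 1377 and 1224 CPM (log2 ratio -1.64, -1.81 to -1.48 in Prog, against -0.01 in the other kept cells). Of the interferon-stimulated genes, 0 of 4 were higher and 0 lower in Prog and 0 of 4 higher and 2 lower in Int. Few sterol synthesis and uptake genes reached the entry level in Prog (2 compared, 2 lower), and in Int 0 of 8 were higher and 2 lower. Of the lipid-associated genes, 3 of 9 were higher and 1 lower in Prog and 0 of 11 higher and 3 lower in Int.

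Cell cycle genes had 4 of 6 higher in Prog and 5 of 7 lower in Int, but they lay in few cells. Top2a, the topoisomerase of dividing cells, was at 72.4, 189.6, 138 and 64.9 CPM in 2, 6, 7 and 8 members, and 1 cell held 83.7%, 44.4%, 25.8% and 85.5% of its UMIs. Without the Retnla-rich cells its log2 ratio was 0.65 in Prog and -0.14 in Int. Haemoglobin and other erythroid genes, a sign of free red cell RNA, summed to 504, 187, 819 and 75.4 CPM in the members and 9839.9, 9038, 20207 and 859 CPM in T cells, and 3 of 3 compared in Int were lower.

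The 2 comparisons share no library, although the mice of an arm were the same at both weeks. Of 2214 genes compared in both, 30 were higher in both, 34 lower in both, 19 higher in Prog and lower in Int, and 19 the reverse. Across these genes, which are not independent replicates, the Spearman correlation of the log2 ratios was 0.06. Mgl2, Clec10a, Tnip3, Itgam, Cd14, Mrc1 and Fn1 were called higher in both, Apoe lower in both, and Cadm1, Wdfy4 and Clec9a were called lower in Prog and were within 1.5-fold in Int. The Int log2 ratio of Mrc1 was 0.86, and 1.73 without the Retnla-rich cells. These pairs of values describe 4 libraries, and the difference between the comparisons was not tested.

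**Figure D5:**
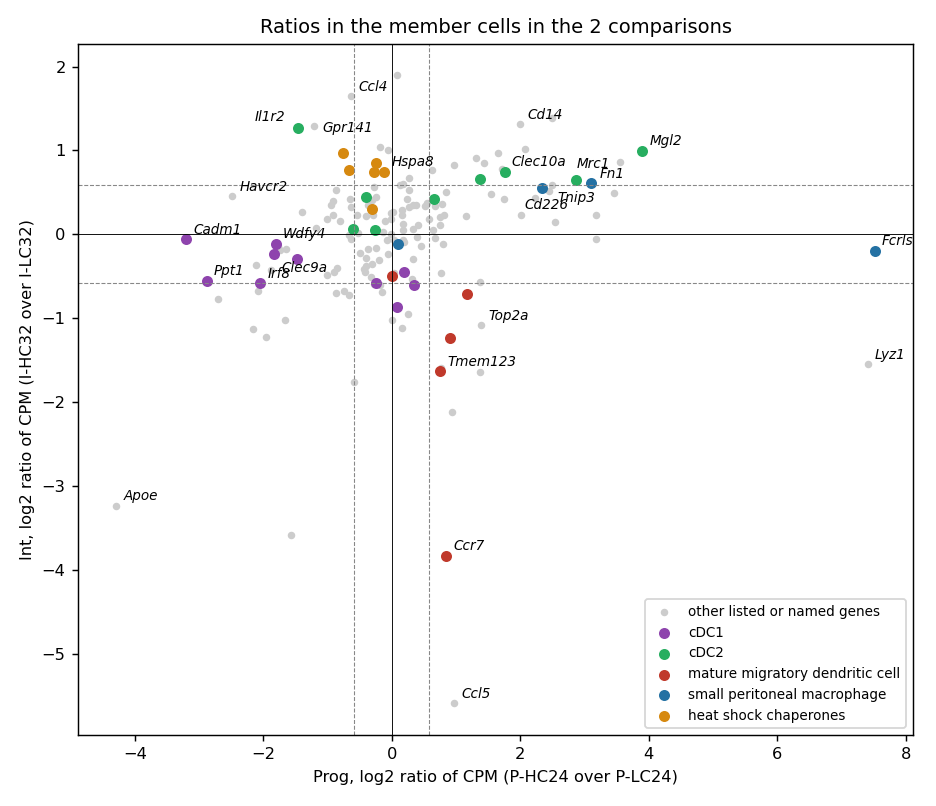
Log2 ratio of CPM in Prog (horizontal) against Int (vertical) for the listed or named genes compared in both, with 5 gene lists in colour and dashed lines at 1.5-fold. Cadm1, Wdfy4 and Clec9a lie at the left with Int ratios near 0, cDC2 genes such as Mgl2 and Clec10a at the upper right, and Ccr7, Tmem123 and Ccl5 at the lower right.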

How the data were processed

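Single-cell libraries were made with the 10x Genomics 3′ v3.1 kit, 1 per condition, and there is no replicate of a condition, so conditions were not tested against each other here. The UMI counts that the authors deposited came from Cell Ranger 9.0.1 on GRCm39 and cover the barcodes called as cells. The submitters' processing notes also name Seurat 5.3, but the deposited UMI counts were whole numbers with no correction for free RNA, cell filter or doublet removal applied. Cells, members and groups were set on these counts as the report states, with scipy 1.17.1, numpy 2.4.6, pandas 2.3.3 and matplotlib 3.10.9 under Python 3.11.15. Scrublet (scanpy 1.11.5) gave doublet scores, and its top 0.8% per 1000 cells of a library were removed only as an alternative.

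Members' UMIs were summed per library and given as CPM with exact Poisson intervals, shares with exact Clopper-Pearson intervals, and ratios with exact conditional binomial intervals, all at 95%. On counts simulated for Prog and Int the ratio intervals were tested on genes of known fold before use. The simulated counts were Poisson, which the intervals assume, so this checked the calculation and not how well the intervals cover the real counts. The confidence intervals do not hold the spread between mice, those of CPM and ratios also not that between cells, and reads from free RNA stay in the counts. T cells were cells with Cd3e, without Cd79a and with fewer than 10 H2-Aa UMIs, and B cells held at least 3 Cd79a UMIs and Ms4a1. Alternatives concerned the mitochondrial limit (5% or 20%), doublets, the limits on H2-Aa and on Flt3 and Cd209a, the denominator, depth, scaling, how cells are weighted, the fold, single cells and which genes enter. Further ones, among them the Cd209a group alone and the Retnla-rich cells left out, were added after the data had been seen.

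The members, the 35 gene lists and the groups were chosen with earlier results of these data known. The rule for named genes took the markers, the highest gene of each list and its genes past 1.5-fold, the 10 highest and 10 lowest ratios with at least 200 UMIs and a UMI in at least 20% of the members, and the 15 genes with the highest ratio to other kept cells. Some of the 158 genes it picks are not named. Other genes named in the text were chosen after their values were seen. Gene positions are those of GENCODE on GRCm39.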

Additional observations from a re-analysis of the deposited data

Results flagged for a closer look

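A small number of genes were past 1.5-fold in opposite directions in Prog and Int, with counting intervals on either side of 0. With 1 library per condition the difference between the comparisons was not tested. Il1r2 had log2 ratios of -1.47 in Prog and 1.27 in Int. Gpr141 followed the same order, at -1.21 and 1.29. Ccl5 was at 0.97 and -5.59, with most of its UMIs in the Ccr7 group. Abtb2, a BTB domain protein, was at 1.37 and -1.64. Top2a was at 1.39 and -1.08, and 1 cell held 83.7% of its UMIs in P-LC24 and 85.5% in I-HC32. Lyz1 was at 7.41 and -1.55, and without the Retnla-rich cells at 2.10 and 4.25.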

How the results depend on the processing

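No paired analysis was possible because each condition has 1 library. Of the shares, groups and counts of genes, 83 alternative values stayed within their interval or within 1.5 times and 29 moved. Without Prg4 macrophages and B cells in the denominator the members' share was 1.78% (LC) and 1.92% (HC) at week 24 and 2.58% (LC) and 2.97% (HC) at week 32. A mitochondrial limit of 5% gave 1.27% for P-HC24 and 1.66% for I-LC32, at least 2 UMIs of Flt3 and Cd209a gave 0.405% in P-HC24, and leaving out cells with B cell UMIs gave 0.362% in P-HC24 and, at week 32, 0.674% for LC and 0.517% for HC. Thinned to 3000 UMIs, the Xcr1/Clec9a group held 21.6% of P-LC24, 4.88% of P-HC24 and 3.28% of I-HC32 members, and the Cd209a share 40.0% in I-LC32. With 1 UMI of Xcr1 or Clec9a as the gate, the Xcr1/Clec9a share was 41.5% for P-HC24 and 30.0% for I-LC32, and the Cd209a share 41.5% and 47.1%.

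With at least 20 UMIs and no limit on cells, Prog had 968 higher and 1644 lower genes and Int 772 and 1128. A 2-fold limit left 86 and 152 genes for Prog, 30 and 77 for Int. At least 2 UMIs of Flt3 and Cd209a gave 162 higher genes in Prog. In the Cd209a group alone, where fewer genes were compared, 153 genes were lower in Prog and 123 in Int. Without the Retnla-rich cells Prog had 174 higher and 430 lower genes and Int 197 and 191.

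Of 173 named ratios past 1.5-fold, 95 stayed past it in the same direction under every alternative that gave a value. Those that changed sign did so mostly in the Cd209a group alone, in Prog Clec9a (0.42), Rab7b (3.29), Irf4 (-0.38), Tmem123 (-0.34), Ccl5 (-1.60), Klri1 (-0.037) and Htr7 (0.83), and in Int Relb (0.40), Il4i1 (0.58), Tmem123 (0.088), Ccl5 (0.41), Cxcl16 (0.029), Idi1 (0.32), Cd63 (0.17), Atxn1 (0.58) and Anxa3 (0.31). Some of these rest on few UMIs in that group. In the LC and then the HC library, Clec9a had 3 and 9 UMIs and Rab7b 1 and 22 in Prog. In Int Il4i1 and Atxn1 each had 3 and 4 UMIs and Cd63 had 1 and 1. The gate of the group also limits Clec9a, so its ratio there is no finding. With each cell weighted equally F13a1 (-0.31) and Tbc1d8 (0.072) changed sign in Prog, and without the top cell Epsti1 did (0.10). Without the Retnla-rich cells F13a1 (-0.87), Ctsd (-0.68) and Cd36 (-0.074) did in Prog, and Cxcl2 (-2.09) and Lyz1 (4.25, on 4 and 63 UMIs) in Int. Depth limits these comparisons to genes with about 100 UMIs over a pair of libraries, and the cause of the changes was not tested.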
